A study of Homo sapiens with 18 samples.

Results

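Mitochondrial ribosomal protein genes were examined as a group in 2 human prostate cancer cell lines, LNCaP and PC-3. The members were all genes of the deposited table whose symbol is MRPL or MRPS followed by a number, with an optional closing A, B or C. This gave 78 of 63241 listed genes, 49 named MRPL and 29 named MRPS, and all 78 are annotated as protein coding.

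The study examined genistein and baicalein, plant flavonoids, as agents that could make prostate cancer cells more sensitive to a radioactive ligand of the prostate-specific membrane antigen. RNA came from 6 groups of 3 libraries, all of cells labelled as wild type. LNCaP cells respond to androgens and derive from a lymph node metastasis. They received genistein at 10 or 20 µM, baicalein at 10 or 20 µM, or no drug, and the treatment lasted 24 h. PC-3 cells grow without androgens, derive from a bone metastasis and were untreated. The labels call the controls untreated, whereas the treatment protocol describes a DMSO vehicle, and each line stands for 1 tumour. Nothing in the labels says that the 3 libraries of a group came from separate cultures, and the spread behind the p-values is that between these libraries, which may be only technical.

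Mitochondria make 13 proteins of the respiratory chain on ribosomes of their own. The RNA of these ribosomes comes from the mitochondrial genome, but every protein in them is encoded in the nucleus, made in the cytosol and imported. A small subunit reads the messenger RNA, and a large subunit joins the amino acids and feeds the chain into the inner membrane. Many of the proteins descend from those of bacterial ribosomes, and others were added during the evolution of mitochondria. The proteins are needed together in the particle, and their genes are often studied as 1 set of the program that builds mitochondria.

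By their place in the human particle, 51 members belong to the large subunit and 26 to the small subunit. MRPS30 and MRPS18A sit in the large subunit despite their names. MRPS36 is the remaining member. It is not found in the particle and is now assigned to the 2-oxoglutarate dehydrogenase complex, an enzyme of the citric acid cycle. A bacterial counterpart was assigned to 44 members and none to 33. MRPS18A and MRPS18B, described below as paralogs of bacterial S18, were counted among the 33, and MRPS18C among the 44.

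Depth was between 10013567 and 18445711 counts per library. The cell line labels matched the marker genes. KLK3, which encodes the prostate-specific antigen, averaged 1.6 CPM (counts scaled to library size) in PC-3 and 1456 CPM in LNCaP. VIM, an intermediate filament gene of mesenchymal cells, averaged 1758 CPM in PC-3 and 6 CPM in LNCaP. All 78 members passed the filter on low counts in both fits.

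The members lie on 21 chromosomes, so no stretch of the genome carries them as a group. MRPL46 and MRPS11 are neighbours on chromosome 15 and are read away from each other, with starts 34 bp apart. In all, 17 members (21.8%) have the start of another protein-coding gene on the opposite strand within 1000 bp upstream of their own start. The share was 7.4% of 19951 protein-coding genes in GENCODE 29. Opposite-strand starts that lie inside the gene were not counted. Exons of 41 members share bases with another gene. Library strand was not recorded, so reads in shared bases could come from either gene. For 1 member, MRPL12, the shared part was over 50% of the exon bases (68.2%, with AC139530.2). Pseudogenes, found by symbol, are listed for 36 members. Their counts exceeded 1% of the counts of pseudogene and parent together for 3 of them, the largest being 12.9% for MRPS31. Among other members with fold changes below, the shared part was 47.0% for MRPS18A (with RSPH9), 40.2% for MRPS18C (with ABRAXAS1) and 38.5% for MRPL9 (with OAZ3 and 2 other genes). It was 36.9% for MRPL43, 23.2% for MRPS24 (with URGCP-MRPS24), 22.2% for MRPS25 and 21.1% for MRPL33 (with BABAM2). Counts of these members, of MRPL12 and MRPS31, and of others that share exon bases are therefore uncertain in part.

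Promoters were read from RefSeq (GRCh38.p14) as windows from 250 bases before to 50 bases after each start, and 69 of the 78 members matched an entry. Short motifs were searched on both strands in these windows. The letters AAGATGGC, a core site of the factor YY1, occurred in 20 members (29%), against 3.03% of 27305 promoters and 5.34% of the 11325 promoters of genes tested here. In 15 of these 20 windows (75%) the site lay after the start and in the direction of transcription, against 45.8% of the 828 windows that held it among all promoters. The ETS site CCGGAAGT, to which the biogenesis factor GABPA binds, was in 11 members (15.9%), against 8.76% of promoters of tested genes. For GCATGCGC, a site of the factor NRF1, the share was 8.70% against 5.70%, and for the SP1 box GGGCGG it was 60.9% against 69.1%. TATAAA was in 2 members. A match describes letters in a window and not a bound site.

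Promoters of 5 members that the results below turn on, or that hold both the YY1 and the ETS letters, show how these windows differ. Capitals mark the YY1, ETS and SP1 letters on either strand. The windows are MRPS6 at chr21:34073328-34073627 on the plus strand, and on the minus strand MRPL16 at chr11:59810729-59811028, MRPS27 at chr5:72320191-72320490, MRPL38 at chr17:75904835-75905134 and MRPL47 at chr3:179604589-179604888.
MRPS6: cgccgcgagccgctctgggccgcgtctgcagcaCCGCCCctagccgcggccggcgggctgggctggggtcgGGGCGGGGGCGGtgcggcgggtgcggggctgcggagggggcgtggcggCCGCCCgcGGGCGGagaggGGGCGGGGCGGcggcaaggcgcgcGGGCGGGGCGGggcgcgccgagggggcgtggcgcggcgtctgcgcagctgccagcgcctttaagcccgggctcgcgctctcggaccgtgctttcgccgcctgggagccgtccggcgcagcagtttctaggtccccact
MRPL16: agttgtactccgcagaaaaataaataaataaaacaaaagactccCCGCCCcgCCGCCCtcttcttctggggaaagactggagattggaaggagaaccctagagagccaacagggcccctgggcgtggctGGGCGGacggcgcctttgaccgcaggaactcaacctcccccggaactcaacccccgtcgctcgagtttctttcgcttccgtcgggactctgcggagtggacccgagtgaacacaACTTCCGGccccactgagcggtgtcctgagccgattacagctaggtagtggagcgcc
MRPS27: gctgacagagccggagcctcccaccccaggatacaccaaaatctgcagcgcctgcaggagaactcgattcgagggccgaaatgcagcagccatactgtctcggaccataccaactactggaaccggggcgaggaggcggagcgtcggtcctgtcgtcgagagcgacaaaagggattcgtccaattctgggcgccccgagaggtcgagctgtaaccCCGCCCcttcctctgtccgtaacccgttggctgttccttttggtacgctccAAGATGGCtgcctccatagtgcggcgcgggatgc
MRPL38: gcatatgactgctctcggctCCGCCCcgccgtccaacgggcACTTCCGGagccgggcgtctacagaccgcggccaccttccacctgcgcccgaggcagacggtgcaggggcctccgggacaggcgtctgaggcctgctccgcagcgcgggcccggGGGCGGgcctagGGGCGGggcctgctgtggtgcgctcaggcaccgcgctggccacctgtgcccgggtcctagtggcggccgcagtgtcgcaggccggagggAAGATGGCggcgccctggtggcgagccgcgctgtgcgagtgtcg
MRPL47: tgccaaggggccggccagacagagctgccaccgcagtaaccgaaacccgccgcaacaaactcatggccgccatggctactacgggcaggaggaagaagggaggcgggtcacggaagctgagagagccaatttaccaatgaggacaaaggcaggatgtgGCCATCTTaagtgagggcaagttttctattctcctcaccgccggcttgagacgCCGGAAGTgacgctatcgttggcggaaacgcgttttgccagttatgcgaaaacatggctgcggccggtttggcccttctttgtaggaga
The MRPS6 window holds 9 SP1 boxes and neither of the other motifs. That of MRPL16 has the ETS letters beginning 7 bases before the start. MRPS27 carries the YY1 letters 17 bases into the transcript. MRPL38 and MRPL47 hold both motifs, with the ETS letters 209 bases upstream in MRPL38 and 39 bases upstream in MRPL47.

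Levels of the members spanned a wide range. Per kilobase of exon, and averaged over the 18 libraries, MRPL41 had the highest level (183.5 CPM per kb), followed by MRPS35 (146 CPM per kb) and MRPL12 (116 CPM per kb). The lowest were MRPL42 (3.21 CPM per kb), MRPL46 (3.94 CPM per kb) and MRPL43 (5.5 CPM per kb).

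Replicate libraries were close for most members. The median coefficient of variation within a LNCaP group was 9.40%, and the median member had a ratio of 1.40 between the highest and lowest library of its most variable group. There were 4 exceptions, MRPL42, MRPL34, MRPL30 and MRPL36, which exceeded a ratio of 3 in some group. MRPL42 had 251.9, 28.2 and 28.9 CPM with baicalein at 20 µM, against 36.8, 32.3 and 48.3 CPM in untreated LNCaP. The first of these libraries alone was high, and the gene was not called (log2 fold change 1.40 ± 0.64, edgeR quasi-likelihood test, adjusted p = 0.0784). MRPL34, which shares exon bases with ABHD8, had 15, 14.9 and 56.6 CPM in untreated LNCaP, and 31.3, 21.8 and 121 CPM in PC-3. In each of these groups 1 library stood apart. MRPL42, MRPL34 and MRPL30 were called in no comparison, and MRPL36 was called higher in PC-3.

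**Figure D1:**
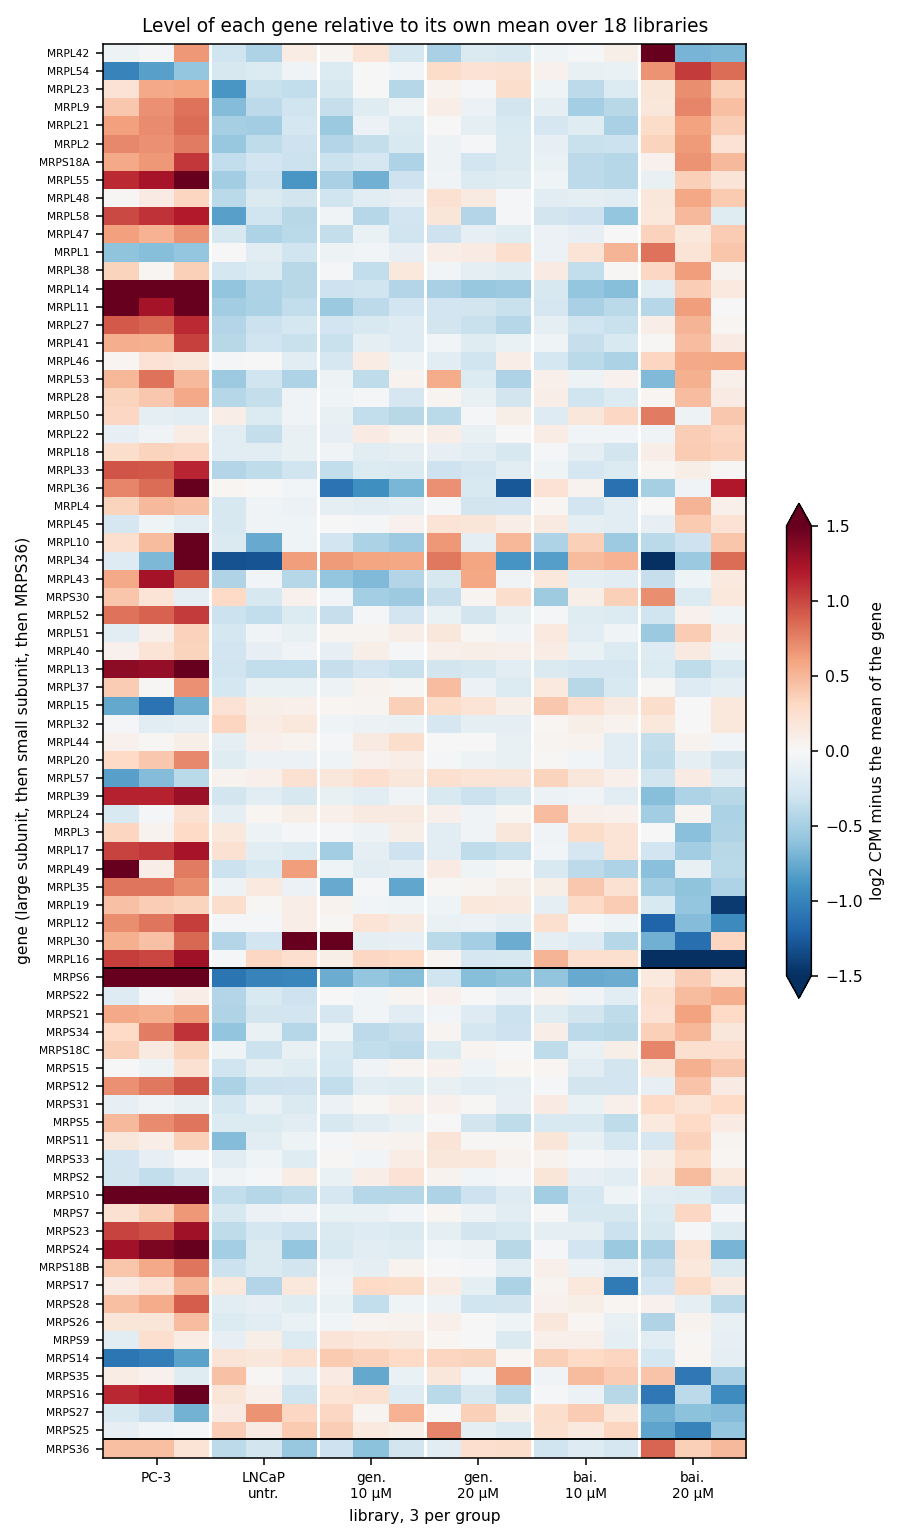
Level of each of the 78 members in each of the 18 libraries, as log2 of CPM per kb minus the mean of that member over all libraries. Columns are libraries by group, lines are members sorted within the large subunit, the small subunit and MRPS36 by their change with baicalein at 20 µM, and the colour scale ends at 1.5 in both directions; the PC-3 and baicalein 20 µM columns differ most from the others, and the single deviant libraries of MRPL42 and MRPL34 stand out.

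Baicalein at 20 µM moved the set in both directions. It raised the transcripts of MRPS6, MRPL54 and MRPS36 about 2-fold or more, lowered those of MRPL16 3.51-fold, and lowered those of MRPS25, MRPS27 and MRPL12 by close to 2-fold. Of the 78 members, 34 were called higher (43.6%) and 9 lower (11.5%) than in untreated LNCaP, by the quasi-likelihood test of edgeR with a Benjamini-Hochberg adjusted p under 0.05. Over all 16985 genes tested, 29.4% were called higher and 27.8% lower. The share called in either direction was 55.1% of members, near the 57.2% of all genes. The median log2 fold change was 0.31 over the members and 0.04 over all genes. Among 9003 other protein-coding genes in the same range of levels, 32.7% were higher, 28.2% lower and the median was 0.09. In RNA from whole cultures, a change in the mixture of cells and a change per cell cannot be told apart.

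MRPS6, the counterpart of a small-subunit protein that pairs with S18 in bacteria, led the rises. It had 54.5, 62.6 and 56.4 CPM with baicalein at 20 µM, against 22.4, 23.5 and 23.9 CPM in untreated cells. All 3 treated libraries lay above all untreated ones. Means were 57.8 ± 4.21 CPM with baicalein and 23.3 ± 0.79 CPM without (SD, n = 3 each), a 2.48-fold difference (log2 fold change 1.31 ± 0.11, SE, adjusted p = 6.18e-07, edgeR). In the dose series of baicalein, MRPS6 averaged 23.3 CPM without drug, 30.2 CPM at 10 µM and 57.8 CPM at 20 µM.

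MRPL54, a large-subunit protein without a bacterial counterpart, had 130.1, 166 and 145 CPM with baicalein at 20 µM, against 67.3, 68.2 and 75.4 CPM in untreated cells. The groups did not overlap, and the level was 2.09-fold higher (adjusted p = 4.67e-06, edgeR). MRPS36, the 2-oxoglutarate dehydrogenase component, had 86.7, 59.2 and 65.2 CPM with baicalein, against 35, 37.3 and 30.4 CPM in untreated cells. Again no library overlapped (2.05-fold, adjusted p = 0.000119).

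The next largest rises were in large-subunit proteins with bacterial counterparts. MRPL23, whose counterpart lies at the mouth of the exit tunnel in bacteria, averaged 29.3 ± 5.11 CPM with baicalein and 14.9 ± 2.80 CPM without (1.97-fold, adjusted p = 0.000469, edgeR). MRPL9 averaged 68.7 ± 12.9 CPM with baicalein and 35.5 ± 4.09 CPM without (1.93-fold, adjusted p = 0.000233). MRPL21 averaged 71.5 ± 7.94 CPM with baicalein and 38.7 ± 3.75 CPM without (1.85-fold, adjusted p = 0.000148). In all 3 genes every treated library exceeded every untreated one.

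MRPL16 showed the largest change among the members called with either drug against untreated cells. Its bacterial counterpart joins the large subunit late in assembly and lies near the site where amino acids are joined. MRPL16 had 15, 15.4 and 11.1 CPM with baicalein at 20 µM, against 42.4, 52.8 and 50.9 CPM in untreated cells. The treated libraries lay far below the untreated ones, and the level was 3.51-fold lower (log2 fold change -1.81 ± 0.15, SE, adjusted p = 6.34e-07, edgeR). At 10 µM baicalein it had 63.3, 52.0 and 52.8 CPM, so that the level at 20 µM was 4.04-fold below that at 10 µM (adjusted p = 3.2e-07). Of the 51 members of the large subunit, 23 were higher and 5, MRPL16 included, were lower.

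MRPS25, a small-subunit protein without a bacterial counterpart, had 24.2, 20.4 and 27.7 CPM with baicalein at 20 µM, against 52.8, 43.6 and 52.6 CPM in untreated cells. The groups did not overlap (2.06-fold lower, adjusted p = 0.000985, edgeR). NR2C2, a nuclear receptor gene with which it shares exon bases (22.2% of those of MRPS25), changed the other way, with a log2 fold change of 1.45 (adjusted p = 0.0286). MRPS27, a small-subunit protein of the pentatricopeptide repeat family, had 33.7, 35.3 and 34.8 CPM with baicalein, against 58.6, 84.5 and 65.8 CPM in untreated cells. Its treated libraries were close to each other and below all untreated ones (2.01-fold lower, adjusted p = 0.000108). PTCD2, which overlaps MRPS27 in 2.90% of exon bases, also fell (log2 fold change -1.02).

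MRPL12 forms the flexible stalk that recruits translation factors, and in human cells it is also known to bind the mitochondrial RNA polymerase. It had 50.8, 73.0 and 59.4 CPM with baicalein at 20 µM, against 111, 111 and 120 CPM in untreated cells. No treated library reached the untreated range (1.86-fold lower, adjusted p = 8.21e-05, edgeR). Dose by dose, its mean was 114 CPM without drug, 121 CPM at 10 µM and 61.1 CPM at 20 µM. MRPS16, a small-subunit protein with a bacterial counterpart, had 40.6, 63.4 and 43.8 CPM with baicalein, against 93.3, 85.8 and 66.1 CPM in untreated cells. These groups came close but did not overlap (1.66-fold lower, adjusted p = 0.00484). MRPL19, also of bacterial descent, had 103, 79.5 and 44.2 CPM with baicalein, against 141, 116.5 and 124 CPM in untreated cells (1.68-fold lower, adjusted p = 0.0151), and its call was lost when only the compared groups entered the fit. The other members called lower were MRPL35, MRPL39 and MRPS14, and the 9 comprise proteins of both subunits.

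**Figure D2:**
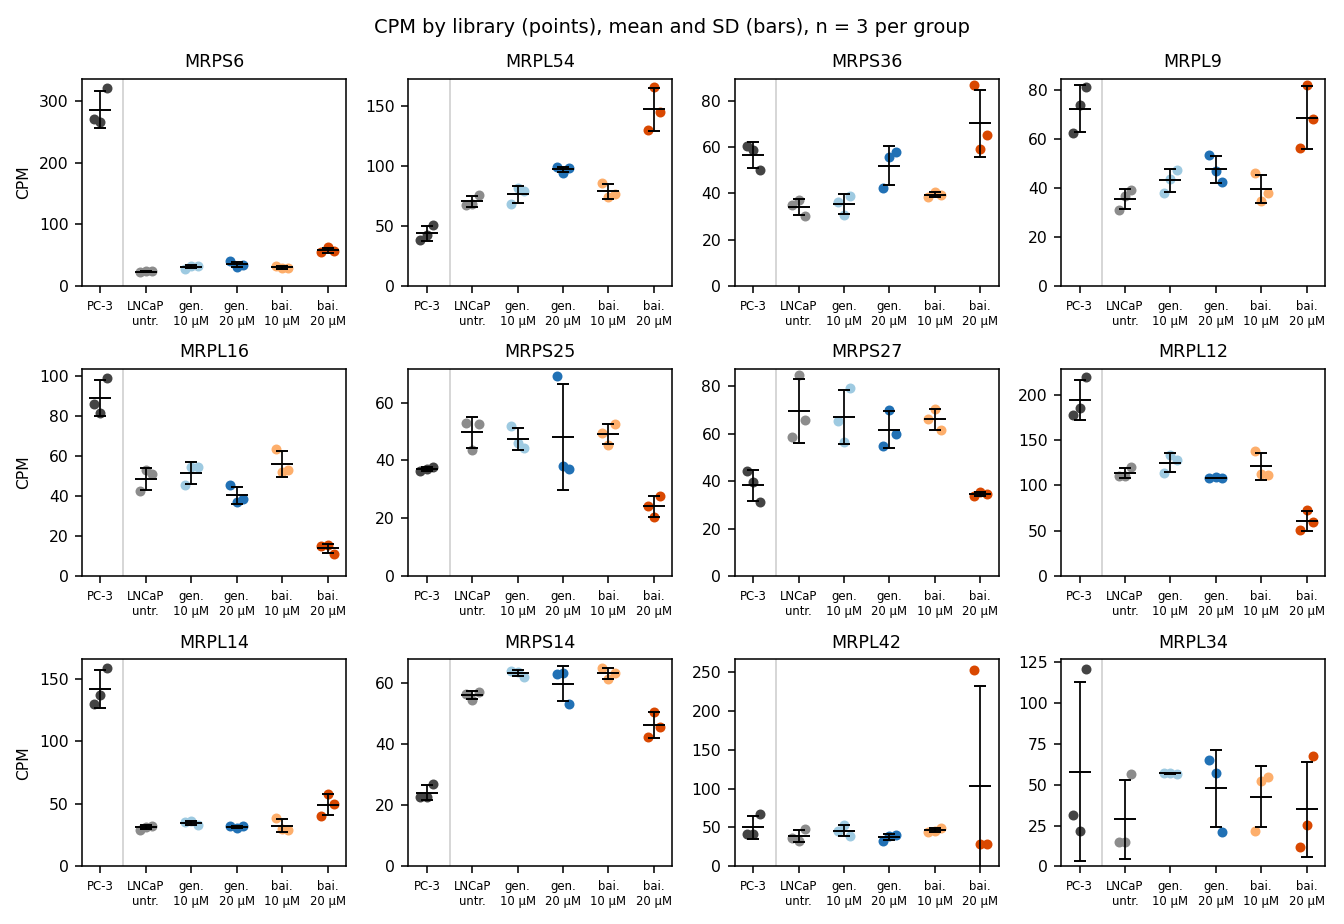
CPM of 12 members in each library, by group, with the mean and SD as bars; PC-3 stands left of untreated LNCaP, and the drug groups follow by dose. CPM of PC-3 come from the scaling of the cell line fit and those of LNCaP from the LNCaP fit; baicalein at 20 µM lies above untreated LNCaP in every library for MRPS6, MRPL54, MRPS36 and MRPL9 and below it for MRPL16, MRPS25, MRPS27 and MRPL12. In the MRPL42 panel the lower error bar of baicalein at 20 µM passes below 0 and is cut at the axis.

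Both directions occurred in both subunits and in both classes of origin. Over all genes tested, 29.4% were higher and 27.8% lower with baicalein at 20 µM. Of 26 small-subunit members, 10 were higher and 4 lower, with a median log2 fold change of 0.21, against 0.38 for the large subunit. Among 44 members with a bacterial counterpart 19 were higher and 6 lower (median 0.30), and among 33 without 14 were higher and 3 lower (median 0.31). Differences between these classes were not tested.

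Members with known special roles also split. MRPS12, which lies at the decoding centre and bears on accuracy in bacteria, averaged 92.3 ± 17.1 CPM with baicalein at 20 µM and 62.3 ± 3.35 CPM in untreated cells (1.48-fold, adjusted p = 0.00276, edgeR). MRPL58, a peptidyl-tRNA hydrolase that rescues stalled ribosomes, averaged 55.9 ± 12.6 CPM with baicalein and 34.1 ± 5.86 CPM without (1.64-fold, adjusted p = 0.0075). MRPS22 averaged 61.3 ± 5.97 CPM with baicalein and 35.6 ± 2.37 CPM without (1.72-fold, adjusted p = 1.89e-05). MRPS34 averaged 100 ± 10.8 CPM with baicalein and 59.4 ± 10.1 CPM without (1.68-fold, adjusted p = 0.00212). All 4 of these small- and large-subunit genes rose. MRPL44, an RNase III-like protein, averaged 50.1 ± 6.53 CPM with baicalein and 52.4 ± 3.80 CPM without (adjusted p = 0.662). MRPS30 averaged 140.2 ± 46.0 CPM with baicalein and 118 ± 22.4 CPM without (adjusted p = 0.461). MRPL3, which reaches toward the catalytic centre in bacteria, averaged 95.1 ± 23.2 CPM with baicalein and 118 ± 11.4 CPM without (adjusted p = 0.124). These 3 were not called.

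Of the 3 paralogs of the bacterial protein S18, 2 were called. MRPS18A, the copy in the large subunit, averaged 58.8 ± 11.6 CPM with baicalein at 20 µM and 33.8 ± 0.85 CPM in untreated cells (1.74-fold, adjusted p = 0.000344, edgeR). MRPS18C, in the small subunit, averaged 96.6 ± 20.5 CPM with baicalein and 62.4 ± 6.12 CPM without (1.55-fold, adjusted p = 0.00376). MRPS18B, also in the small subunit, had 76.6, 107 and 82.9 CPM with baicalein, against 75.9, 80.6 and 77.5 CPM without, which overlapped (adjusted p = 0.219). The difference between the paralogs was not tested.

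Transcripts of the mitochondrial genome were higher in the same libraries. They made up 10.5%, 14.5% and 12.4% of the counts with baicalein at 20 µM, against 4.65% to 5.36% in untreated LNCaP, and between 4.94% and 6.35% with the other drug treatments. Of the 13 mitochondrial mRNAs, 12 were higher and 1 lower, with MT-ATP6 averaging 7470 ± 605 CPM with baicalein and 489 ± 26.3 CPM without (log2 fold change 3.93, adjusted p = 2.1e-10, edgeR). Both mitochondrial rRNAs were higher, with log2 fold changes of 1.55 for MT-RNR2 and 1.85 for MT-RNR1. Poly(A) selection and overlapping genes bear on counts of this genome. With its genes left out of the library sizes, 32 members were higher and 9 lower with baicalein, and the members' median was 0.25 against -0.02 over all genes. The summed level of the members, scaled by TMM over all 18 libraries, was 5561, 5869 and 5370 CPM with baicalein at 20 µM, against 4856, 4882 and 5020 CPM in untreated cells, which did not overlap. Their unscaled share of all counts was 0.504% ± 0.0436 with baicalein and 0.5285% ± 0.0135 in untreated cells. Without mitochondrial genes that share averaged 0.577% with baicalein and 0.557% in untreated cells. By library it was 0.525%, 0.647% and 0.560% with baicalein, against 0.539%, 0.5625% and 0.5695% in untreated cells, so the groups overlapped.

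**Figure D3:**
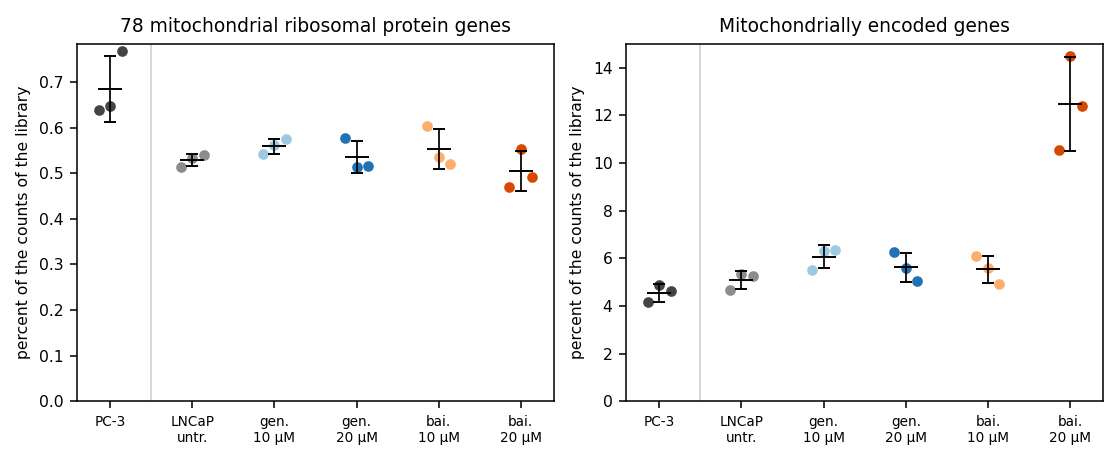
Percent of the counts of each library that fell to the 78 members (left) and to mitochondrially encoded genes (right), with the mean and SD of each group. Mitochondrially encoded genes reach 10.5% to 14.5% with baicalein at 20 µM and at most 6.35% in every other library, while the members hold 0.469% to 0.768%, with the highest share in PC-3.

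Genistein at 20 µM gave few calls among the members in this fit. It raised MRPL23, MRPS36, MRPS6, MRPL54, MRPL48, MRPS22 and MRPS33 by between 1.26-fold and 1.59-fold, and lowered MRPL32. That is 7 members higher (8.97%) and 1 lower (1.28%), against 8.31% and 8.12% of all genes tested, so the share called higher was near the background. The median log2 fold change was 0.20 over the members and 0.05 over all genes, and 65 of 78 estimates were above 0. The comparisons of both drugs share the untreated libraries, so their values are set side by side below without a test of overlap.

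MRPS6 had 39.8, 31.3 and 33.1 CPM with genistein at 20 µM, against 22.4, 23.5 and 23.9 CPM in untreated cells. The groups did not overlap (1.49-fold, adjusted p = 0.00374, edgeR). MRPL54 had 98.7, 94.3 and 97.9 CPM with genistein, against 67.3, 68.2 and 75.4 CPM in untreated cells, again without overlap (1.38-fold, adjusted p = 0.0144). MRPS36 had 42.2, 55.6 and 58.0 CPM with genistein, against 35, 37.3 and 30.4 CPM in untreated cells (1.52-fold, adjusted p = 0.0229). In MRPS36 the lowest treated library was only a little above the highest untreated one.

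MRPL23 averaged 23.6 ± 2.96 CPM with genistein at 20 µM and 14.9 ± 2.80 CPM without (1.59-fold, adjusted p = 0.0236, edgeR). MRPL48, another large-subunit protein, averaged 48.6 ± 3.55 CPM with genistein and 35.3 ± 2.13 CPM without (1.38-fold, adjusted p = 0.0117). In the small subunit, MRPS22 averaged 46.0 ± 1.70 CPM with genistein and 35.6 ± 2.37 CPM without (1.29-fold, adjusted p = 0.0223). No library of these 3 genes overlapped between the groups. MRPS33 averaged 98.4 ± 2.62 CPM with genistein and 78.3 ± 3.43 CPM without (1.26-fold, adjusted p = 0.0268). MRPL32, whose precursor is cut by the inner-membrane m-AAA protease in yeast and mouse, had 105, 114.5 and 117 CPM with genistein, against 155, 132 and 136 CPM without (1.25-fold lower, adjusted p = 0.0308). These calls were sensitive to single libraries. The number called higher fell to 1 without untreated replicate 1, to 2 without untreated replicate 3 or genistein replicate 1, and to 4 without any of the other 3 libraries. The calls of MRPL32 and MRPS22 were each lost in 9 of 14 alternative fits. Those of MRPS36, MRPL23, MRPL54, MRPL48 and MRPS6 were lost in 5, 4, 3, 3 and 1. With GC and length trends removed the number higher was 14, and 12 with the replicate block as well. The share of all genes called in these 2 fits is not given here, so the rise cannot be set against a background. MRPL16, MRPS25, MRPS27 and MRPL12, which fell with baicalein, were not called with genistein, and MRPL12 had 108, 109 and 108 CPM with genistein, against 111, 111 and 120 CPM in untreated cells.

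At 10 µM no member was called with either drug by edgeR. With genistein 0 members were higher and 0 lower, against 0.0353% and 0.0765% of all genes, and DESeq2 called 0 and 1. At an unadjusted p under 0.05 (edgeR) there were 5 and 2 of the 78 members, against 929 and 529 of the 16985 genes tested. With baicalein at 10 µM 0 and 0 were called, against 0.0883% and 0.312% of all genes, and 0 and 0 by DESeq2. The unadjusted threshold gave 7 and 0 of the 78 members, against 911 and 996 of the 16985 genes tested. The members' medians were 0.13 with genistein and 0.17 with baicalein, against 0.03 for all genes with each drug. MRPS6 had 28.1, 32.8 and 31.5 CPM with genistein at 10 µM and 32.8, 28.6 and 29.3 CPM with baicalein at 10 µM, against 22.4, 23.5 and 23.9 CPM in untreated cells. All treated libraries exceeded the untreated ones, but the difference did not pass the adjusted threshold with either drug.

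**Figure D4:**
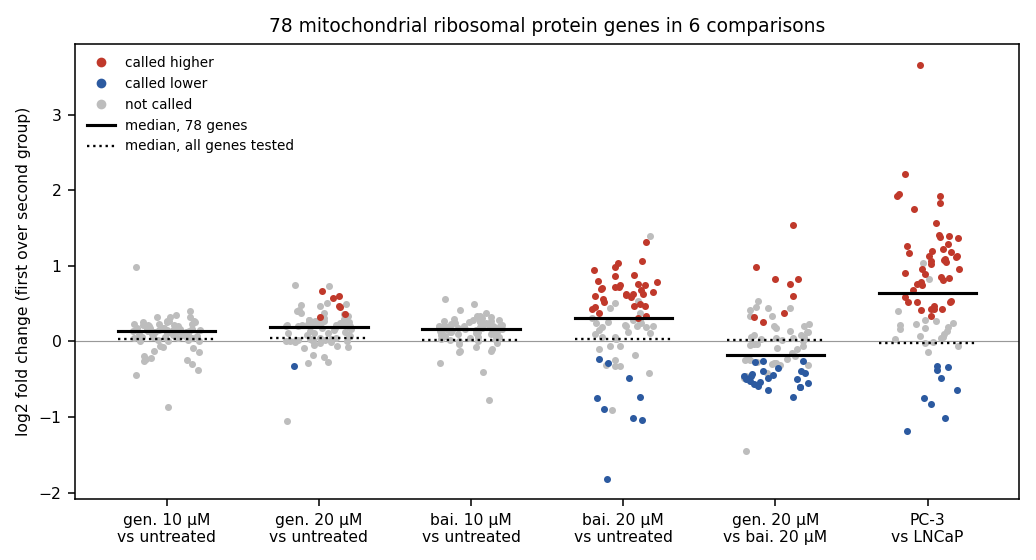
Log2 fold change of each member (points, coloured by call) in 6 comparisons: each drug and dose against untreated LNCaP, genistein against baicalein at 20 µM, and PC-3 against LNCaP, with solid lines at the members' median and dotted lines at the median of all genes tested. Called members run from -1.81 for MRPL16 with baicalein at 20 µM to 3.66 for MRPS6 in PC-3, and no point is coloured at 10 µM.

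Raising the dose from 10 to 20 µM was tested directly. Between baicalein doses, 26 members were higher at 20 µM and 12 lower (48.7% in either direction), against 26.8% higher, 27.5% lower and 54.4% in either direction among all genes. MRPS6 (1.91-fold), MRPL54 (1.86-fold) and MRPL46 (1.83-fold), a large-subunit protein without a bacterial counterpart, rose most. MRPL16 (4.04-fold), MRPS25 (2.04-fold) and MRPL12 (1.98-fold) fell most. The number lower was 6 when only the compared groups entered the fit. Leaving out a library gave 18 to 28 higher and 8 to 14 lower. The others lower at 20 than at 10 µM were MRPS27, MRPL19, MRPL35, MRPL39, MRPS14, MRPS16, MRPL24, MRPL3 and MRPL57. Of these, the call of MRPL3 was lost in 5 of 14 alternative fits and that of MRPS16 in 3. Between genistein doses, MRPL43 and MRPS36 were higher at 20 µM and 0 were lower, against 5.59% and 7.63% of all genes. MRPL43 had 16.1, 28.4 and 18.8 CPM at 20 µM, against 12.3, 12 and 14 CPM at 10 µM (1.66-fold, adjusted p = 0.0338, edgeR), with 1 library well above the rest. MRPS36 had 42.2, 55.6 and 58.0 CPM at 20 µM, against 36.3, 30.5 and 38.9 CPM at 10 µM (1.47-fold, adjusted p = 0.0361). The count called higher was 0 without replicate 1 or 3 of the 10 µM group or replicate 2 or 3 of the 20 µM group, and 1 without replicate 2 of the 10 µM group. It was 10 with GC and length trends removed, 8 with the replicate block as well, 1 with the block alone and 5 by DESeq2. The shares of all genes called in those fits are not given here.

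Genistein and baicalein are isomers built on the same fused ring system. Genistein is an isoflavone, with the phenyl ring on the neighbouring carbon and a hydroxyl group on it, whereas baicalein is a flavone that carries its hydroxyl groups on the fused rings only. Their readouts were compared at both doses, 2 pairs in all, each with p-values adjusted over all genes tested. At 10 µM no member differed between genistein and baicalein by edgeR, against 0.00589% of all genes higher and 0.0% lower. DESeq2 called 0 higher and 1 lower. An unadjusted p under 0.05 (edgeR) was reached by 1 member higher and 2 lower, against 828 and 484 of the 16985 genes tested. For 72 of 78 members the 95% interval of the difference between the drugs stayed inside a factor of 2, and for 59 inside a factor of 1.5.

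At 20 µM the isomers differed in 32 members. Genistein gave higher levels than baicalein for 9 of them and lower levels for 23, against 25.4% and 23.3% of all genes tested. Expressed as shares, this is 11.5% of members higher and 29.5% lower, with a median log2 difference of -0.17 over the members and 0.02 over all genes. MRPL16 had 45.4, 37.2 and 38.5 CPM with genistein, against 15, 15.4 and 11.1 CPM with baicalein. No libraries overlapped, and the level was 2.91-fold higher with genistein (log2 difference 1.54 ± 0.15, SE, adjusted p = 4.66e-06, edgeR). MRPS25 had 69.1, 37.9 and 36.9 CPM with genistein, against 24.2, 20.4 and 27.7 CPM with baicalein (1.99-fold, adjusted p = 0.00188). The first genistein library of MRPS25 was well above the other 2, and all were above the baicalein libraries.

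MRPS27 averaged 61.6 ± 7.75 CPM with genistein and 34.6 ± 0.81 CPM with baicalein (1.78-fold, adjusted p = 0.000677, edgeR). MRPL12 averaged 108 ± 0.40 CPM with genistein and 61.1 ± 11.2 CPM with baicalein (1.77-fold, adjusted p = 0.000234). MRPL35 averaged 48.3 ± 1.91 CPM with genistein and 32 ± 1.69 CPM with baicalein (1.51-fold, adjusted p = 0.0125). MRPL19 was 1.69-fold higher, and MRPL39, MRPL57 and MRPS14 completed the group. MRPS6 was 1.67-fold lower with genistein, at 34.7 ± 4.50 CPM, against 57.8 ± 4.21 CPM with baicalein (adjusted p = 0.000121, edgeR). MRPL14, which docks assembly factors on the large subunit, was 1.56-fold lower, and MRPS18A and MRPL54 were each 1.52-fold lower. MRPL46 was 1.5-fold lower, and MRPL27 was 1.48-fold lower. Where no difference was called, the interval bounds how large it could be. Over all 78 members at 20 µM it stayed inside a factor of 2 for 67 and of 1.5 for 31. The number lower with genistein was 15 without genistein replicate 2.

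The step from 10 to 20 µM also differed between the drugs. The genistein step was higher than the baicalein step for 7 members and lower for 10, against 17.3% and 15.5% of all genes tested. MRPL16 led the first group and MRPL46 the second. The number lower was 6 without genistein 10 µM replicate 2 or replicate 3, and 5 without baicalein 10 µM replicate 3 or genistein 20 µM replicate 3.

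PC-3 cells had more mitochondrial ribosomal protein transcripts than LNCaP cells. MRPS6 was 12.6-fold higher, MRPL14 4.66-fold and MRPS10 3.87-fold, while MRPS14 and MRPL15 were about 2-fold lower. In all, 48 members were higher (61.5%) and 9 lower (11.5%) in PC-3, against 37.0% and 37.9% of 17259 genes tested. The share called in either direction, 73.1%, was near the 74.9% of all genes. The median log2 fold change was 0.64 over the members and -0.02 over all genes, and among 9256 other protein-coding genes in the same range of levels it was 0.06, with 39.7% higher and 35.1% lower. The summed level of the members on the same 18-library scale was 7414, 7426 and 8691 CPM in PC-3, against 4856, 4882 and 5020 CPM in LNCaP, without overlap. Leaving out any library gave between 43 and 49 members higher.

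MRPS6 had 271, 266 and 321 CPM in PC-3, against 21.6, 23.0 and 23.3 CPM in LNCaP. This was the largest difference of any member (log2 fold change 3.66 ± 0.12, SE, adjusted p = 9.28e-07, edgeR). SLC5A3, an inositol transporter gene that shares exon bases with MRPS6, was also higher in PC-3 (log2 fold change 1.49). Together with AP000317.2, the other overlapping gene, it shares 9.6% of the exon bases of MRPS6. The median log2 fold change of 25 other genes within 2 Mb was 1.00. MRPL14 had 130.0, 137 and 159 CPM in PC-3, against 28.5, 31.1 and 31.8 CPM in LNCaP (adjusted p = 5.45e-06). MRPS10, a small-subunit protein of the head, had 169, 159.5 and 163.5 CPM in PC-3, against 43.2, 41.3 and 42.5 CPM in LNCaP (adjusted p = 3.26e-06). In these 3 genes the lowest PC-3 library stood far above the highest LNCaP library.

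MRPL11, at the base of the stalk that carries MRPL12, had 101.5, 83.4 and 116 CPM in PC-3, against 25, 26.0 and 28.0 CPM in LNCaP (3.80-fold, adjusted p = 2.32e-05, edgeR). MRPL12 itself averaged 194 ± 22.2 CPM in PC-3 and 111 ± 5.30 CPM in LNCaP (1.76-fold, adjusted p = 0.000564). MRPL55 and MRPS24 were 3.80-fold and 3.56-fold higher. MRPS16, which fell with baicalein, averaged 190.3 ± 24.1 CPM in PC-3 and 79.4 ± 13.4 CPM in LNCaP (2.40-fold, adjusted p = 0.000344). MRPL58 was 2.96-fold higher, MRPL33 2.57-fold, MRPS12 2.24-fold and MRPS34 2.14-fold. The S18 paralogs were all higher, MRPS18A by 2.12-fold, MRPS18B by 1.80-fold and MRPS18C by 1.34-fold.

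MRPS14, a small-subunit protein with a bacterial counterpart, had 22.6, 22.7 and 26.9 CPM in PC-3, against 54.7, 53.4 and 55.7 CPM in LNCaP. The groups were well apart (2.27-fold lower, adjusted p = 5.6e-05, edgeR). MRPL15, of the large subunit, had 37.5, 28.8 and 37.7 CPM in PC-3, against 74.2, 67.9 and 67.3 CPM in LNCaP (2.02-fold lower, adjusted p = 0.000366). MRPS27 was 1.77-fold lower, MRPL57 1.68-fold, MRPL54 1.56-fold and MRPL1, of the stalk beside the exit site, 1.40-fold. MRPL44 averaged 52.3 ± 1.71 CPM in PC-3 and 50.9 ± 3.99 CPM in LNCaP and was not called, nor were MRPS30, MRPL3 and MRPS22.

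By subunit, and against 37.0% of all genes higher and 37.9% lower, 32 of 51 large-subunit members were higher in PC-3 and 5 lower (median log2 fold change 0.75), and 15 of 26 small-subunit members were higher and 4 lower (median 0.45). Those with a bacterial counterpart had 30 higher and 5 lower of 44 (median 0.80), and those without had 17 higher and 4 lower of 33 (median 0.42). These differences were not tested. Some members were called in the same direction as genes near them. MRPL15 was lower together with 8 of 11 tested protein-coding neighbours within 2 Mb, MRPL1 with 11 of 17 and MRPS27 with 8 of 15, and MRPL13 was higher together with 7 of 9. Across the 77 members with at least 5 tested neighbours, Spearman's rho between the change of the member and the median change of its neighbours was 0.35 (Pearson's r 0.38) in PC-3, and -0.03 (r -0.05) with baicalein at 20 µM. Members on the same chromosome share neighbours, so this is a description. The neighbours of MRPS10 and MRPL14 had medians of only 0.11 and 0.22.

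In none of the 10 comparisons, counting the test of whether the dose step differed between drugs, was a call made for 11 members. They were MRPL30, MRPL34, MRPL42, MRPL44, MRPL49, MRPL50, MRPL51, MRPS17, MRPS30, MRPS35 and MRPS9. MRPS35, next to MRPL41 in level per kilobase, had 390.3, 134 and 205 CPM with baicalein at 20 µM, against 382, 279 and 249 CPM in untreated cells, so its replicates spread widely. MRPL44 was close between replicates and groups throughout, with group means from 50.1 to 58.6 CPM in LNCaP.

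Responses were also set beside the promoter motifs. With baicalein at 20 µM, 7 of the 20 members with the YY1 letters were higher and 1 lower (median log2 fold change 0.29), and of the 49 without them 23 were higher and 7 lower (median 0.31). In PC-3 the medians were 0.53 with and 0.52 without the YY1 letters. For the ETS letters they were 0.91 over 11 members with and 0.45 over 58 without in PC-3, and 0.53 with and 0.30 without these letters under baicalein. These differences were not tested. Of 14 divergent pairs with both genes tested, 8 had the same sign with baicalein at 20 µM, 7 with genistein at 20 µM and 5 in PC-3. MRPL27, for example, was higher with baicalein while EME1, a DNA repair gene whose start lies 6 bp away, was lower (log2 fold change 0.61 and -0.72).

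Other genes of the pathway were called in both directions with baicalein at 20 µM, where 29.4% of all genes were higher and 27.8% lower. Of the 5 ribosomal proteins of mitochondria with other names, 2 were higher and 2 lower. PTCD3, a small-subunit protein, averaged 47.9 ± 4.94 CPM with baicalein and 91.1 ± 5.45 CPM without (adjusted p = 2.61e-06, edgeR), whereas GADD45GIP1, of the large subunit, averaged 112 ± 12.9 CPM with baicalein and 68.3 ± 2.77 CPM without. Translation factors had 3 higher (18.8%) and 4 lower (25%) of 16, both below those shares, with GFM1, the elongation factor that moves the ribosome along, at 110.6 ± 15.8 CPM with baicalein and 256 ± 15.9 CPM without (log2 fold change -1.21). Among 26 factors of ribosome assembly and rRNA modification, 5 were higher (19.2%), such as MALSU1 (log2 fold change 0.89), and 8 lower (30.8%), such as RBFA (-0.95).

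The mitochondrial tRNA synthetases, which charge tRNAs for these ribosomes, had 12 of 20 lower (60.0%) and 4 higher (20.0%) with baicalein at 20 µM, against 27.8% lower and 29.4% higher among all genes, with a median log2 fold change of -0.55. MARS2, the methionine enzyme, averaged 25.8 ± 0.94 CPM with baicalein and 56.2 ± 4.24 CPM without (adjusted p = 2.29e-07, edgeR), and IARS2, the isoleucine enzyme, fell by 0.91 on the log2 scale. Genes of transcription and replication of the mitochondrial genome had 7 higher (38.9%) and 3 lower (16.7%) of 18, with SUPV3L1, an RNA helicase, and POLG2, the accessory subunit of the DNA polymerase, up by 1.6 and 1.75. Of 9 regulators of biogenesis, 4 were higher (44.4%) and 2 lower (22.2%). NRF1 averaged 114 ± 17.3 CPM with baicalein and 30.7 ± 3.02 CPM without (log2 fold change 1.89, adjusted p = 4.38e-07), and YY1 averaged 199.7 ± 49.7 CPM with baicalein and 115 ± 6.78 CPM without (adjusted p = 0.00302). Chaperones and proteases had 4 higher (33.3%) and 2 lower (16.7%) of 12.

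Cytosolic ribosomal protein genes, the counterpart set for the cytosol, had 46 of 82 higher (56.1%) and 5 lower (6.1%) with baicalein at 20 µM, against 29.4% and 27.8% of all genes, with a median log2 fold change of 0.39. Nuclear-encoded subunits of the respiratory chain had 31 of 79 higher (39.2%) and 10 lower (12.7%, median 0.21), with COX5B up by 0.84 on the log2 scale. With genistein at 20 µM, where 8.31% of all genes were higher and 8.12% lower, the cytosolic set had 14 higher (17.1%) and 3 lower (3.66%), the respiratory chain 13 higher (16.5%) and 1 lower (1.27%), and the mitochondrial mRNAs 5 higher and 1 lower. The chaperones and proteases had 3 higher and 0 lower, the tRNA synthetases and the transcription and replication genes each had 1 higher and 2 lower, and the regulators had 2 higher. Translation and assembly factors had 1 higher each, and neither mitochondrial rRNA nor any of the 5 other ribosomal proteins was called. Leaving out 1 library at a time gave 1 to 5 higher in the cytosolic set and 4 to 6 in the respiratory chain. NRF1 was also higher with genistein, at 58.9 ± 4.36 CPM, against 30.7 ± 3.02 CPM in untreated cells (adjusted p = 0.00126, edgeR).

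In PC-3, 37.0% of all genes were higher and 37.9% lower. The other ribosomal proteins of mitochondria had 3 higher and 1 lower of 5, with CHCHD1 at 356 ± 42.9 CPM, against 52.8 ± 2.72 CPM in LNCaP. Cytosolic ribosomal protein genes had 44 of 83 higher (53.0%) and 16 lower (19.3%), and RPL39L, a variant of RPL39, averaged 72.2 ± 10.8 CPM in PC-3 with 0 counts in all 3 LNCaP libraries. Respiratory chain subunits had 48 of 79 higher (60.8%) and 11 lower (13.9%, median log2 fold change 0.63). Translation factors had 4 higher (25%) and 6 lower (37.5%) of 16, and assembly factors 9 higher and 9 lower of 26 (34.6% each), with MTERF4, which guides rRNA methylation, at 8.30 ± 0.30 CPM in PC-3 and 61.0 ± 4.73 CPM in LNCaP. The tRNA synthetases had 7 higher (35%) and 6 lower (30.0%) of 20, and the transcription and replication genes 5 higher and 2 lower of 18. The regulators had 1 higher and 2 lower of 8 tested, chaperones and proteases 3 higher and 5 lower of 12, mitochondrial mRNAs 7 higher and 4 lower of 13, and of the rRNAs MT-RNR2 was lower.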

How the data were processed

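RNA from 18 libraries was sequenced after poly(A) selection with a kit that does not mark strand, per the labels' protocols. The values used are whole-number read counts per gene as deposited by the authors. The submitters' processing notes name GRCh38, DESeq2 1.20.0, featureCounts 1.6.4, STAR 2.7.6a and fastp, with no roles given. Handling of reads with several matches, and the annotation release, are not given in the sources used here. The 18 deposited FPKM columns were not used.

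Members were found by symbol. Counts were scaled by TMM and tested by edgeR's quasi-likelihood method (version 4.0.16, R 4.3.3, default filter on low counts, robust), adjusted by Benjamini-Hochberg over all genes, with a call at an adjusted p under 0.05. The 15 LNCaP libraries entered 1 fit (16985 genes, 10 residual degrees of freedom) and the 6 untreated libraries another (17259 genes, 4 degrees of freedom), so CPM of untreated LNCaP differ slightly between them. Standard errors are fold changes on the log2 scale divided by the root of F. Pairs of replicate libraries differed by more than sampling noise (chi-square per degree of freedom 13.3 to 110.1). The test recovered changes set in simulated counts of well-counted genes. Many fold changes reported here are smaller than those that were set, and recovery of such changes was not tested. No molecular identifiers were used, so depth limits cover counting error only.

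Members named are the 6 largest rises and 6 largest falls per main comparison among called members of at least 5 CPM with no overlap between libraries, 3 and 3 in other comparisons, 14 members chosen by role, and the extremes of level per kilobase. For each of 11 pathway lists, the 2 smallest adjusted p are eligible. Members and lists were chosen with earlier results of these data known. Alternatives were DESeq2 (1.42.0) and its size factors, no filter, a replicate block, removal of GC and length trends, mitochondrial genes left out, other samples in the fit, and leaving out each library. MRPL42, MRPL34, MRPS33, MRPL36, MRPS35 and the neighbours, overlapping genes and YY1 given beside members were singled out after their values were seen. A few of the eligible genes are not reported here.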

Additional observations from a re-analysis of the deposited data

Results flagged for a closer look

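The step from 10 to 20 µM differed between the drugs for 17 members by a test of the difference itself (edgeR, drug by dose term, adjusted over all genes), 7 in the positive and 10 in the negative direction. This is 21.8% of members, a smaller share than the 32.8% called among all genes tested. By direction it is 8.97% and 12.8% of members, against 17.3% and 15.5% of all genes. The 3 largest in each direction are given, among members with at least 5 CPM. The values are the genistein step minus the baicalein step on the log2 scale. The largest positive ones were MRPL16 (1.66, adjusted p = 8.95e-05), MRPL35 (1.33, adjusted p = 0.00128) and MRPS25 (1.04, adjusted p = 0.0166). MRPL16 had 45.4, 37.2 and 38.5 CPM at 20 µM genistein, against 45.4, 54.7 and 54.4 CPM at 10 µM, while baicalein gave 15, 15.4 and 11.1 CPM at 20 µM, against 63.3, 52.0 and 52.8 CPM at 10 µM. MRPL35 had 46.9, 47.6 and 50.5 CPM at 20 µM genistein, against 26.4, 45.0 and 27.1 CPM at 10 µM, and 32.5, 30.1 and 33.4 CPM at 20 µM baicalein, against 49.5, 60.2 and 54.5 CPM at 10 µM. Its baicalein step was called (adjusted p = 0.00215, edgeR) and its genistein step was not (adjusted p = 0.0508).

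The largest negative ones were MRPL46 (-0.89, adjusted p = 0.00398), MRPS6 (-0.76, adjusted p = 0.00235) and MRPL14 (-0.75, adjusted p = 0.009). MRPL46 had 32.4, 37.6 and 38.3 CPM at 20 µM baicalein, against 21.5, 19.1 and 18.5 CPM at 10 µM, and 23.0, 20.8 and 28.4 CPM at 20 µM genistein, against 20.9, 27.7 and 24.4 CPM at 10 µM. MRPS6 had 54.5, 62.6 and 56.4 CPM at 20 µM baicalein, against 32.8, 28.6 and 29.3 CPM at 10 µM, and 39.8, 31.3 and 33.1 CPM at 20 µM genistein, against 28.1, 32.8 and 31.5 CPM at 10 µM. In both genes the baicalein groups did not overlap and the genistein groups did. All 6 kept their call in each of 20 alternative fits.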

How the results depend on the processing

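No direction reversed under any alternative. For baicalein at 20 µM, leaving out each library gave 31 to 40 members higher and 8 to 10 lower, and for PC-3 43 to 49 and 6 to 9, with a median of 0.509 to 0.711. For genistein at 20 µM it gave 1 to 4 higher and 0 to 1 lower, between genistein doses 0 to 2 higher, between baicalein doses 18 to 28 higher and 8 to 14 lower, between the drugs at 20 µM 7 to 12 higher and 15 to 21 lower, at 10 µM 0 to 1 lower, and for the difference in dose step 5 to 9 higher and 5 to 12 lower.

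The replicate numbers did not pair the samples: deviations of same-numbered LNCaP libraries correlated between -0.395 and 0.336, over 0.1 in 7 of 30 pairs, and those of PC-3 and LNCaP in 1 of 3. Differently numbered LNCaP libraries correlated between -0.332 and 0.449, over 0.1 in 19 of 60 pairs, so some libraries of different groups deviated alike. The largest value joined baicalein 10 µM replicate 1 and baicalein 20 µM replicate 2. Each had the highest member share of counts in its group (0.604% and 0.553%). With the replicate block, genistein at 20 µM had 6 higher and 0 lower, baicalein at 20 µM 32 and 9, PC-3 50 and 9, genistein against baicalein at 20 µM 9 and 16, and the genistein dose step 1 higher. With GC and length trends removed, genistein at 20 µM had 14 higher (12 with the block, and 0 lower), its dose step 10 (8 with the block, and 1 lower), the drug by dose term 11 higher with and without the block, genistein against baicalein at 20 µM 14 higher with the block, and the median with genistein at 10 µM was 0.056 with and without the block. Without a filter, medians were 0.033 with genistein and 0.082 with baicalein at 10 µM, genistein at 20 µM had 0 lower, genistein against baicalein 15 lower and the drug by dose term 4 lower. With only the compared groups fitted, genistein at 20 µM had 0 lower, the baicalein dose step 6 lower and genistein against baicalein 5 higher. DESeq2 called 1 lower with genistein at 10 µM, 1 lower between the drugs at 10 µM, and 5 higher for the genistein dose step. In PC-3 the median over all genes was -0.291 without a filter and -0.214 by DESeq2, against 0.535 and 0.56 over the members. The cause was not tested in any of these. Shares of all genes called under the alternatives are not given here, so the counts above describe the members only.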
